A study of Arabidopsis thaliana with 5 samples.

Results

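The comparison described here set roots of Arabidopsis thaliana kept in high magnesium for 7 d beside roots kept in it for 4 d. The plants were wild type, given as Col-1, grown for 5 weeks in chambers with 10 h of light and 14 h of dark, and then supplied with 10 mM Mg2+. Total RNA of whole roots was sequenced, with 1 library at 7 d and 1 at 4 d. The remaining libraries of the series, also 1 each, are low Mg (0.5 µM Mg2+) at 7 d, low Mg at 4 d and a control at 4 d whose Mg level is not in the labels. A control at 7 d was not used here. The wider study asks how Mg supply affects root hairs, which single cells of the root epidermis send out to take up water and ions.

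Genes entered the comparison if they were nuclear loci with 5 or more FPKM (mapped fragments of a gene, divided by its transcript length and by the size of the library) in the 7 d or the 4 d library, which held for 16081 of 33559 loci. For each gene the log2 ratio of 7 d over 4 d was taken after adding 1 FPKM to both values. A log2 ratio of 1 or more counts as 2-fold higher and of -1 or less as 2-fold lower, and "higher" and "lower" below mean that. With 1 library per day there is no replicate error, no test was possible, and every ratio describes 2 libraries only. Days of treatment, age of the plants and the hour of harvest, which the labels do not give, cannot be told apart in it, nor can a difference in library preparation. In whole roots, fewer cells of a type and less RNA per cell cannot be told apart either.

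At 7 d, 747 genes were higher (4.65% of those compared) and 1819 were lower (11.3%), 16% in all. Every count of list members below is to be read beside these shares. The median log2 ratio was -0.15, with quartiles of -0.57 and 0.22. At 4-fold, 232 genes were higher (1.44%) and 393 lower (2.44%). Of the higher genes 106 were listed at 0 at 4 d, and of the lower genes 37 were listed at 0 at 7 d. This split depends on the scale. Rescaling each library to the same nuclear sum (TPM) moved all ratios up, by 1.34 at the median, and gave 10014 higher and 241 lower genes, because a locus of 102 nt, AT2G01021, made up 15.6% of all FPKM at 7 d and 57.5% at 4 d. Leaving that locus out of the sum moved the median by 0.44 and gave 1869 higher and 841 lower genes. TPM over protein-coding genes of 500 nt or more gave 2038 and 804, centring on the median 954 and 1365, and centring within classes of exon length 1083 and 1007. A gene that is lower below but turned positive under the full TPM rescaling is named as such. No gene or list named as higher or lower turned under the other scalings, but calls changed: of 231 named genes, 48 crossed the 2-fold limit with TPM over coding genes, 47 with TPM without the short locus and 29 with centring by length.

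The day ratio also followed the length of the gene. In high Mg its median was 0.14 for genes with more than 3000 nt of exon, -0.04 for 2000 to 3000 nt, -0.31 for 1000 to 1500 nt, -0.63 for 500 to 1000 nt and -1.504 for 250 to 500 nt. In low Mg the same classes stood at 0.18, -0.04, -0.36, -0.69 and -1.56. Genes under 250 nt had medians of 2.22 in high Mg and 0.39 in low Mg. Genes of 250 to 1000 nt thus stood lower at 7 d than longer genes in both supplies, and the part of gene length in the lists below was not tested beyond centring within its classes. Summed FPKM of the 133 chloroplast loci was 389 at 7 d, against 8207 at 4 d, and that of the 146 mitochondrial loci was 1234 at 7 d, against 5430 at 4 d. Library size, estimated from the lowest values, was 11.004 M fragments at 7 d and 11.87 M at 4 d. At that depth 5 FPKM on 1 kb of transcript stands for about 55.0 fragments at 7 d and 59.4 at 4 d, and counting error at such levels is small beside a 2-fold difference. Of 16 root marker genes, 16 reached 5 FPKM at 7 d and 15 at 4 d, none was listed at 0, and their summed level was 814 FPKM at 7 d and 1618 FPKM at 4 d (median 22.1 FPKM at 7 d and 52.7 FPKM at 4 d), a difference whose part in the results was not tested. Of 12 green tissue markers 1 did so on each day, their summed level was 19.1 FPKM at 7 d and 28.0 FPKM at 4 d, and 1 of them was listed at 0 at 7 d and 3 at 4 d.

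**Figure D1:**
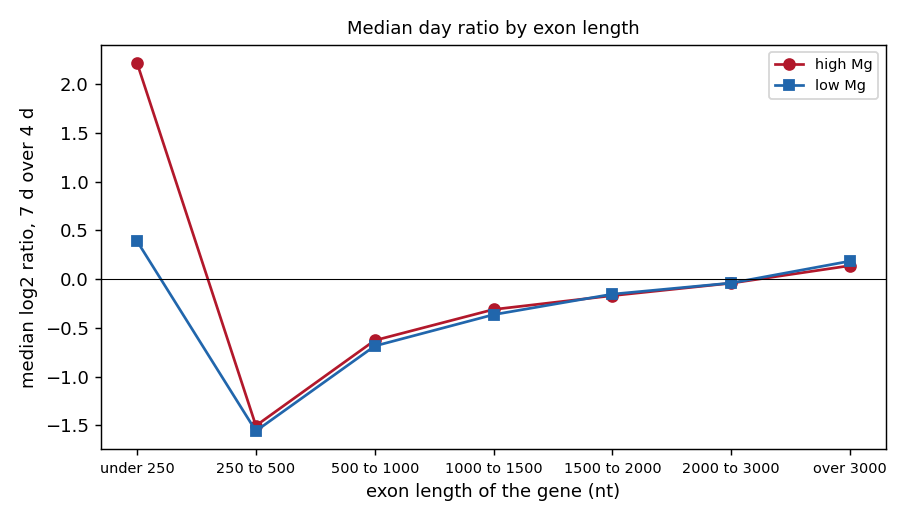
Median log2 ratio of 7 d over 4 d (y axis) of the genes compared, by exon length in nt (x axis), in high Mg (circles) and low Mg (squares). Above 250 nt the medians climb with length in both supplies, from -1.504 to 0.14 in high Mg and from -1.56 to 0.18 in low Mg.

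The plot of gene lists by day ratio gives 44 lists in the order of their medians. Morning clock genes and genes of the root hair wall lie at its ends.

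**Figure D2:**
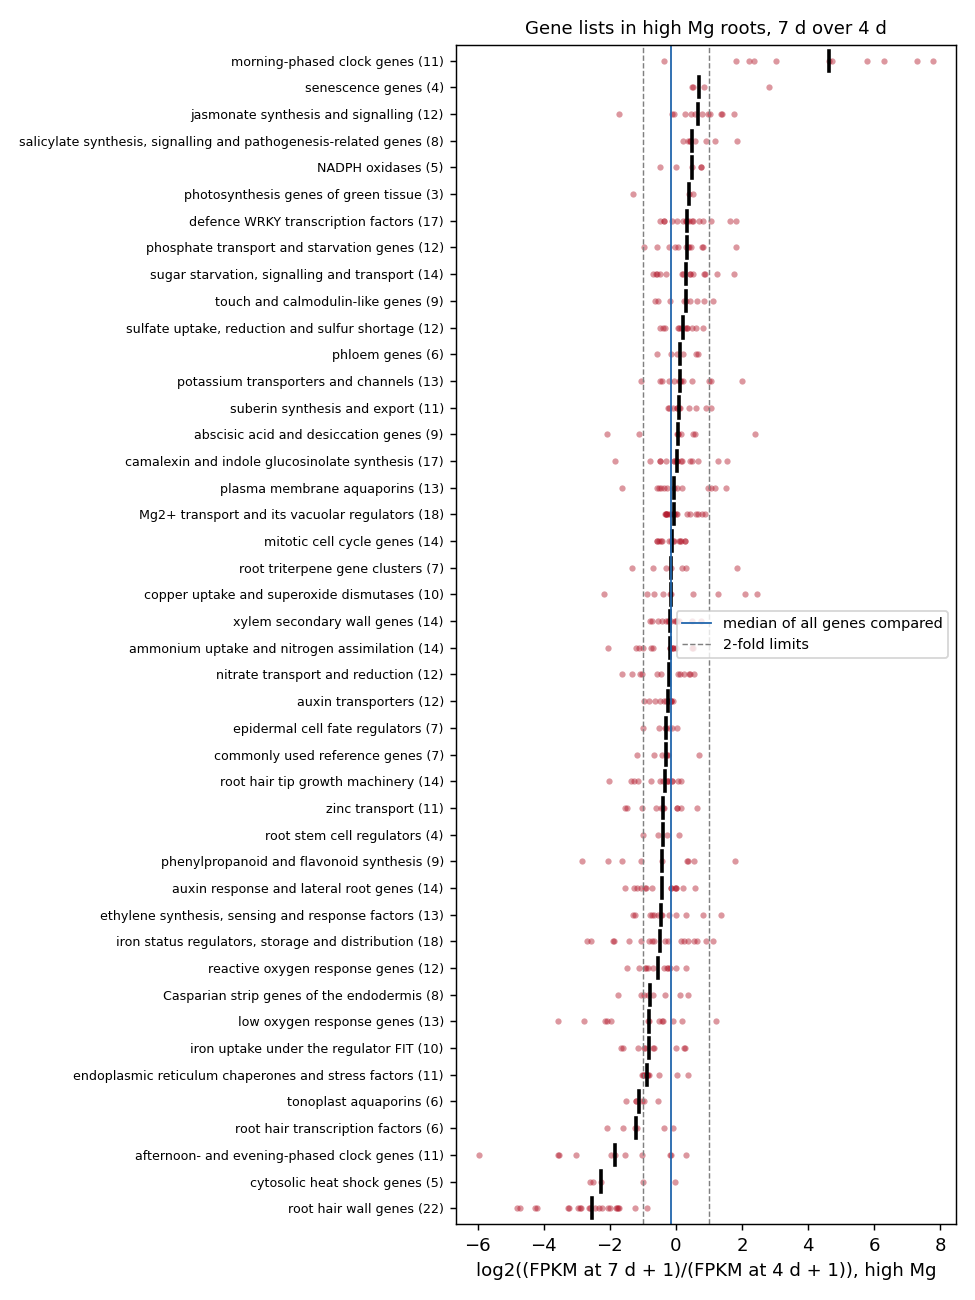
Log2 ratio of 7 d over 4 d in high Mg (x axis) for the compared members of 44 gene lists (rows, with the number of members), 1 point a gene. Black bars are list medians, the solid line the median of all genes compared (-0.15) and dashed lines the 2-fold limits. Morning clock genes have the highest median (4.62) and root hair wall genes the lowest (-2.53), and under TPM rescaling the medians of the root hair transcription factors and the tonoplast aquaporins turn positive.

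The plant clock is a loop of genes that peak at different hours. CCA1 and LHY, a pair of MYB-related repressors, peak around dawn and bind the evening element in the promoters of evening genes. PRR proteins follow through the day, and the evening complex of ELF4, ELF3 and LUX closes the loop by night. The clock runs in roots as well as in shoots.

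Morning-phased genes formed the highest group. Of 11 compared, 10 were higher at 7 d and 0 lower, with a median log2 ratio of 4.62, and 9 were more than 4-fold higher. CCA1 (AT2G46830, chromosome 2, 19245591 to 19248915 in TAIR10.1) had 256 FPKM in high Mg at 7 d, against 0.172 FPKM at 4 d. In low Mg it had 228 FPKM at 7 d and 0.201 FPKM at 4 d, and it was listed at 0 in the control at 4 d. It was thus high in both libraries at 7 d and close to 0 in all 3 at 4 d, and its log2 ratio in high Mg was 7.78. LHY (AT1G01060, chromosome 1, 33365 to 37871) had 190 FPKM in high Mg at 7 d and 0.215 FPKM at 4 d, with 180 FPKM in low Mg at 7 d, 0.0794 FPKM in low Mg at 4 d and 0.0345 FPKM in the control. Its log2 ratio was 7.30.

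LNK2, a coactivator that works with the RVE proteins, stood at 265 FPKM at 7 d and 2.39 FPKM at 4 d, a log2 ratio of 6.29. RVE8, a MYB-related activator of evening genes, stood at 74.5 and 0.372 FPKM (5.78). The repressor PRR9 stood at 53.8 and 1.08 FPKM (4.72). Next came RVE1, which links the clock to auxin synthesis, at 4.62, RVE2 at 3.02, CDF1, a Dof repressor of flowering genes, at 2.36, RVE4 at 2.21 and LNK1 at 1.82. PRR7, which peaks later in the day than PRR9, was the exception at 17.1 and 22.3 FPKM (-0.37). CCA1, LHY, LNK2, RVE8, PRR9 and RVE1 passed 5 FPKM only through their 7 d value. In 8 of the 11 genes the high Mg library at 7 d was the highest of all 5.

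Genes of the afternoon and evening stood the other way. The 11 compared included 8 that were lower at 7 d and none that was higher, at a median of -1.83. BOA, at -1.03, turned positive under TPM rescaling, as did none of the other 7. ELF4 (AT2G40080, chromosome 2, 16734294 to 16734953), a subunit of the evening complex, had 2.77 FPKM in high Mg at 7 d, against 232 FPKM at 4 d. It had 8.78 FPKM in low Mg at 7 d, 191 FPKM in low Mg at 4 d and 127 FPKM in the control. Both libraries at 7 d lay below all 3 at 4 d, and its log2 ratio of -5.95 in high Mg was the lowest of any coding gene named here that was above 0 on both days.

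LUX, the DNA-binding subunit of that complex, had 7.58 FPKM at 7 d and 101 FPKM at 4 d (-3.57). FKF1, an F-box protein of the blue light response, had 0.161 and 12.5 FPKM (-3.54), and GI, its partner, 4.93 and 46.7 FPKM (-3.01). PRR5 stood at -1.96, PRR3 at -1.83 and TOC1, the evening repressor of CCA1 and LHY, at -1.54 with 19.1 FPKM at 7 d and 57.7 FPKM at 4 d. ELF4, FKF1, GI, PRR5, PRR3 and BOA passed 5 FPKM only through their 4 d value. ELF3 (0.29), ZTL (-0.15) and LKP2 (-0.17) differed by less than 2-fold, and ZTL is known to be steady in its transcript. JMJD5, a demethylase-like clock gene outside the list, had 1.92 FPKM at 7 d and 34.6 FPKM at 4 d (-3.61).

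The same order was present without high Mg. In low Mg, 10 of the 11 morning genes were higher and 7 of the 11 evening genes lower at 7 d, with medians of 4.64 and -2.19, against 4.03% of 16182 genes higher and 12.9% lower in all. High and low Mg share no library in these ratios. The sign of the ratio was the same in both supplies for 11 of 11 morning genes and 10 of 11 evening genes.

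**Figure D3:**
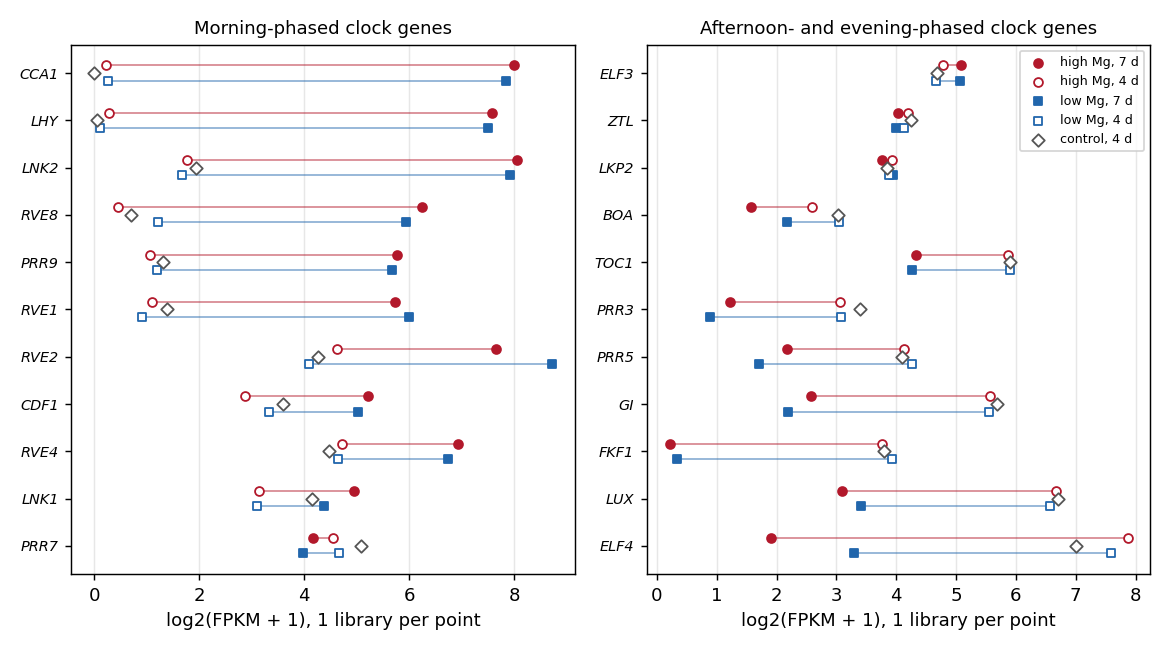
Level of morning-phased (left) and afternoon- and evening-phased (right) clock genes as log2(FPKM + 1) on the x axis, 1 library per point, with lines joining 7 d (filled) and 4 d (open) in high Mg (circles) and low Mg (squares); diamonds are the control at 4 d. CCA1 lies at 256 FPKM in high Mg at 7 d and 0.172 FPKM at 4 d and ELF4 at 2.77 and 232 FPKM, and low Mg follows the same pattern, with BOA (-1.03 in high Mg) turning positive under TPM rescaling.

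The promoters of some of these genes hold letters through which clock proteins are known to act. Those of CCA1, LHY, TOC1 and LUX are shown as examples that hold them. Whether the letters bear on the day ratios was not tested. Each line gives the 250 bases before the annotated start of the gene, 5′ to 3′ on the strand of the gene, from the RefSeq TAIR10.1 assembly. Capitals mark the G-box (CACGTG) in CCA1 (chr2:19245341-19245590, plus strand) and LHY (chr1:37872-38121, minus strand), and the evening element (AAATATCT on either strand) in TOC1 (chr5:24674713-24674962, plus strand) and LUX (chr3:17182792-17183041, plus strand).
CCA1: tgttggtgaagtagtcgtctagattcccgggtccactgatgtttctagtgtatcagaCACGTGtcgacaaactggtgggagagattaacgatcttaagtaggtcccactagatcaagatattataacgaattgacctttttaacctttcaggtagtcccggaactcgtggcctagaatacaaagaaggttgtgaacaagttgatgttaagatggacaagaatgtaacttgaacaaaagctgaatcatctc
LHY: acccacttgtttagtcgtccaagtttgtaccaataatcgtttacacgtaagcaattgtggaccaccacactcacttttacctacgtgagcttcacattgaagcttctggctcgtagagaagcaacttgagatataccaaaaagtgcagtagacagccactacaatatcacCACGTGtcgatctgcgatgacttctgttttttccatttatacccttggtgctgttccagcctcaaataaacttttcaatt
TOC1: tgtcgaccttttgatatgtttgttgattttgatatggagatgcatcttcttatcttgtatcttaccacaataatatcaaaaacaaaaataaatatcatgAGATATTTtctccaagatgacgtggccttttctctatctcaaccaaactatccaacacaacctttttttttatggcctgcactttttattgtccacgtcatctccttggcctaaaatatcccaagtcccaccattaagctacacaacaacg
LUX: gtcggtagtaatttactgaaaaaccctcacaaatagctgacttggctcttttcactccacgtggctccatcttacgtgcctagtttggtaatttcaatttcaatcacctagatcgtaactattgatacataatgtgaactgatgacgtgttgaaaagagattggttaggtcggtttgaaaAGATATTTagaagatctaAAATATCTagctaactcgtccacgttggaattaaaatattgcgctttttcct

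The evening element stood in this window in 6 of the 11 evening genes (TOC1, ELF4, LUX, PRR5, FKF1 and BOA) and in 0 of the 11 morning genes. It was present in 4.84% of 26695 protein-coding nuclear genes, in 8.1% of 1740 genes that were lower at 7 d in high Mg and in 4.16% of 625 that were higher. The G-box stood in 6 of the 11 morning genes (CCA1, LHY, RVE1, RVE2, PRR9 and PRR7) and in LUX and BOA of the evening genes, against 6.58% of all promoters, 9.12% of the higher genes and 6.32% of the lower ones. The motifs do not overlap each other in letters, both strands were searched, and a match is a description of the window and not a site.

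The 12 highest and 12 lowest were also taken of the coding genes of 500 nt or more that carry a symbol in the annotation and stood above 0 on both days. LNK2 is not ranked there, since the annotation gives that name only as a synonym. Other genes among the 12 highest were HO4, a heme oxygenase, with 49.0 FPKM at 7 d and 0.868 FPKM at 4 d (4.74), BBX28 (3.88) and BBX30 (3.16), both B-box zinc finger proteins of light signalling, SPA3 (3.49), a partner of the light-signalling ubiquitin ligase COP1, ATH13 (3.22) and PP2-A10 (3.16), related to phloem lectins. HO4 stood apart in high Mg at 7 d, since in low Mg it had 2.70 FPKM at 7 d and 1.74 FPKM at 4 d. Low at 7 d were the light-harvesting gene LHB1B2, which had 36.1 FPKM at 4 d (-4.21), the lipid-transfer-like EARLI1 (-3.96), the defensin-like PDF2.1 (-3.74) and the abscisic acid response factor ABF1 (-3.59). The other low genes of that rank encode clock proteins, a desaturase described with the low oxygen genes, and extensins.

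Root hairs grow at their tips, and their wall is built by extensins, proline-rich proteins, expansins and xyloglucan endotransglucosylases made in hair cells. The bHLH factors RHD6 and RSL1 set the cell on this path, and RSL2, RSL4 and the LRL factors act after them. RSL4 is known to bind the root hair element in promoters of such genes.

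Genes of the root hair wall were the lowest list in high Mg at 7 d. Of 25 listed, 22 were paired with the annotation and all of these were compared, with 21 lower genes and no higher one, and their median log2 ratio was -2.53. Among them EXT11, PRP1, XTH12, XTH13, RHS8, RHS10 and RHS12 passed 5 FPKM only through their 4 d value. LRX2, at -1.24, turned positive under TPM rescaling, and the list kept 20 lower genes with TPM over coding genes and had 22 when centred within classes of exon length. In low Mg 3 of the 22 were higher and 4 lower, with a median of 0.40. The day ratio was at least 2-fold lower in high than in low Mg in 22 of 22 genes, against 3.59% of 16678 genes, and the high Mg library at 7 d was the lowest of the 5 in 18 of 22. At 4 d, high Mg stood above the control in 16 of 22 and was the highest of the 5 libraries in 12.

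Extensins, rod-like hydroxyproline-rich glycoproteins that cross-link in the wall, were the lowest. EXT6 (AT2G24980, chromosome 2, 10622396 to 10624309) had 8.15 FPKM in high Mg at 7 d, against 257 FPKM at 4 d. It had 66.5 FPKM in low Mg at 7 d, 295 FPKM in low Mg at 4 d and 394 FPKM in the control. High Mg at 7 d was the lowest of the 5, at a log2 ratio of -4.82, and low Mg also stood below its 4 d library, at -2.13. EXT12 had 6.40 FPKM at 7 d and 195 FPKM at 4 d in high Mg (-4.72), against 17.3 and 37.9 FPKM in low Mg. EXT11, a pseudogene in this annotation, stood at -4.27, HRGP1 at -4.21 with 25.04 FPKM at 7 d and 482 FPKM at 4 d, and EXT10 at -3.26. EXT13, an extensin outside the list, stood at -3.69. Extensins repeat the same short motifs, so fragments may be shared between them and single values are uncertain.

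Proline-rich and arabinogalactan proteins followed. PRP3 (AT3G62680), a structural wall protein of hair cells, had 23.4 FPKM in high Mg at 7 d and 191 FPKM at 4 d, while low Mg had 119 FPKM at 7 d and 103 FPKM at 4 d, and the control 118 FPKM. High Mg at 7 d was the lowest library and high Mg at 4 d the highest, with a log2 ratio of -2.97 between them. PRP1 had 3.49 FPKM at 7 d and 41.6 FPKM at 4 d (-3.24). It had 2.502 FPKM in low Mg at 7 d, 1.07 FPKM in low Mg at 4 d and 0.242 FPKM in the control, so here the library that stood apart was high Mg at 4 d. AGP3, an arabinogalactan peptide, stood at -2.64, and LRX1, a chimeric extensin with leucine-rich repeats, at -2.46.

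Enzymes and proteins that loosen the wall moved alike. XTH12 stood at -2.87, XTH26 at -2.61, XTH14 at -2.06 and XTH13 at -2.01 in high Mg, and at 1.06, 1.22, 0.94 and 1.40 in low Mg. These xyloglucan endotransglucosylase genes thus had ratios of opposite sign in the 2 supplies, a direction that no scaling turned in high Mg. The expansins of root hairs, EXPA18 and EXPA7, stood at -2.24 and -1.80 in high Mg and at 0.31 and 0.55 in low Mg. EXPA7 had 19.4 FPKM in high Mg at 7 d and 70.3 FPKM at 4 d, with 53.0 FPKM in low Mg at 7 d, 35.9 FPKM in low Mg at 4 d and 55.4 FPKM in the control. The remaining members, which were found as root hair specific genes, were RHS12 (-2.90), RHS13 (-2.32), RHS19 (-1.78), RHS10 (-1.74), RHS18 (-1.71) and RHS8, which at -0.87 missed the limit.

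**Figure D4:**
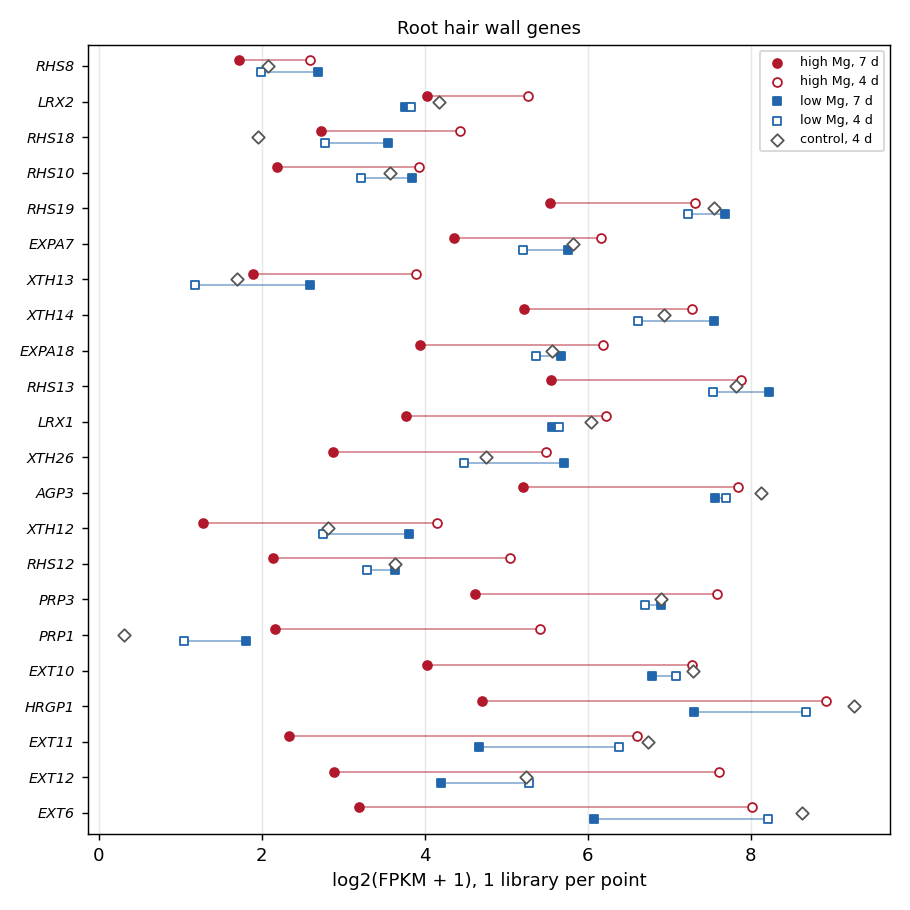
Level of 22 root hair wall genes as log2(FPKM + 1) on the x axis, 1 library per point, with lines joining 7 d (filled) and 4 d (open) in high Mg (circles) and low Mg (squares); diamonds are the control at 4 d. High Mg at 7 d is the lowest of the 5 libraries in 18 of 22 genes, and LRX2 (-1.24) turns positive under TPM rescaling.

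The root hair element stood in the 250 bases before the start of 7 of 21 root hair wall genes with a window (EXPA7, EXPA18, PRP1, PRP3, LRX1, RHS13 and RHS18). It was present in 0.757% of all protein-coding promoters and in 1.38% of 1740 lower genes. Of the 291 lower genes whose ratio was also at least 2-fold below that in low Mg, 17 held it (5.84%). All 7 root hair wall genes just named are among these 17, so this share is not separate from the list. Of the 11 morning clock genes, LHY and RVE1 held it too. A pair is shown, with the match in capitals: EXPA7 (chr1:4276255-4276504, plus strand) has it on its own strand, and PRP3 (chr3:23182472-23182721, plus strand) on the other.
EXPA7: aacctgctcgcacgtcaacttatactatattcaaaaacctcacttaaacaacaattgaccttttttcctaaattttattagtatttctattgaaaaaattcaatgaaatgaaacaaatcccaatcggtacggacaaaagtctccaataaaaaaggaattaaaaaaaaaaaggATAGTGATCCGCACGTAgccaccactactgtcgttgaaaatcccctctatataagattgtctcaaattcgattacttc
PRP3: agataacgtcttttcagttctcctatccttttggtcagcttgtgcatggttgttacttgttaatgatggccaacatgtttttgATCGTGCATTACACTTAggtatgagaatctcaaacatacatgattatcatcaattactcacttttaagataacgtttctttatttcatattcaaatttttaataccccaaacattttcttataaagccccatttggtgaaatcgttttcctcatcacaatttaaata

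Among the transcription factors of root hairs 4 of 6 compared were lower, with a median of -1.21 that turned to 0.14 under TPM rescaling. TPM over coding genes left 2 of the 6 lower, and centring by length left 3. LRL3 had 12.8 FPKM at 7 d and 57.6 FPKM at 4 d (-2.09), and RSL4, which sets how long a hair grows, 2.66 FPKM at 7 d and 10.0 FPKM at 4 d (-1.59). In low Mg RSL4 had 3.14 FPKM at 7 d and 2.09 FPKM at 4 d, and 1.13 FPKM in the control, so high Mg at 4 d was the highest of the 5 libraries. RSL4 passed 5 FPKM only through that value. LRL2 (-1.25) and RSL2 (-1.18) were also lower, and both turned positive under TPM rescaling. RHD6 (-0.35) and LRL1 (-0.07) differed by less than 2-fold, and RSL1 stayed below 5 FPKM at 1.70 FPKM at 7 d and 4.30 FPKM at 4 d.

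Among genes of tip growth, 4 of 14 were lower, with a median of -0.32: MRH6 (-2.03), the phosphoinositide kinase PIP5K3 (-1.34), the receptor-like kinase ERU (-1.27) and the phosphatidylinositol transfer protein COW1 (-1.16), of which COW1 turned positive under TPM rescaling. TPM over coding genes left 1 of the 14 lower, and centring by length left 4. PIP5K3 and ERU passed 5 FPKM only through their 4 d value. RHD2, the NADPH oxidase of growing hairs, stood at -0.49. The regulators that place hair and non-hair cells differed by less than 2-fold in 7 of 7 cases, with a median of -0.30, from EGL3 at 0.05 to GL2, which represses the hair fate, at -0.99.

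Magnesium enters and moves in the root through MRS2 channels, and the calcium sensors CBL2 and CBL3 with the kinases CIPK3, CIPK9, CIPK23 and CIPK26 control its storage in the vacuole. None of the 18 compared genes of this list differed by 2-fold, against 16% of all genes, and the median was -0.06. The highest were CIPK3, with 71.5 FPKM at 7 d and 38.5 FPKM at 4 d (0.88), CIPK23 (0.81), CIPK26 (0.67) and MRS2-5 (0.61). The lowest were the vacuolar exchanger MHX (-0.33), MRS2-1 (-0.31), MRS2-7 (-0.29) and the vacuolar calcium exchanger CAX1 (-0.29). Between these lay MRS2-11 (0.44), CAX4 (0.34), CAX2 (0.02), CBL3 (0.02), MRS2-2 (-0.06), MRS2-10 (-0.07), CIPK9 (-0.10), CBL2 (-0.13), MRS2-3 (-0.21) and MRS2-4 (-0.26). CIPK9 had 7.74 FPKM at 7 d and 8.35 FPKM at 4 d in high Mg, but 2.71 FPKM in low Mg at 7 d, 0.780 FPKM in low Mg at 4 d and 0.713 FPKM in the control. It was thus higher in both high Mg libraries than in the other 3, with little between the days. With TPM over coding genes 4 of the 18 passed 2-fold, all upward. MRS2-6 and CAX3 stayed below 5 FPKM.

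Iron is taken up by the root epidermis through the reductase FRO2 and the transporter IRT1 under the factor FIT. Of 10 compared genes of this route 3 were lower in high Mg at 7 d and 0 higher (median -0.81), while in low Mg 3 were higher and 0 lower, with a median of 0.59. IRT1 (AT4G19690, chromosome 4, 10707344 to 10709015) had 60.0 FPKM in high Mg at 7 d and 185 FPKM at 4 d, and in low Mg 195 FPKM at 7 d and 81.0 FPKM at 4 d, with 25.5 FPKM in the control. The days stood in opposite order in the 2 supplies, at log2 ratios of -1.61 and 1.26. CYP82C4, which makes an iron-mobilizing coumarin, stood at -1.66, and FRO2 at -1.13, which turned positive under TPM rescaling. IRT2 stayed below 5 FPKM.

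Of 18 genes of iron status 6 were lower and 1 higher (median -0.49). NAS1 (-2.70) encodes a nicotianamine synthase, and VTL5 (-2.55), VTL2 (-1.90) and VTL1 (-1.87) encode vacuolar iron transporter-like proteins. With TPM over coding genes 4 were lower and 4 higher. The higher gene was YSL3 (1.12), a transporter of metal chelates.

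Copper genes differed between the supplies in their day ratios. Of 10 compared in high Mg 3 were higher and 1 lower, with a median of -0.16, whereas in low Mg 5 were higher and 4 lower. FSD1, an iron superoxide dismutase made when copper is short, had 47.7 FPKM in high Mg at 7 d and 10.5 FPKM at 4 d (2.08). In low Mg it had 827 FPKM at 7 d and 6.71 FPKM at 4 d, and 27.6 FPKM in the control. It was thus higher at 7 d in both supplies, and by far more in low Mg. FRO4, a copper reductase, stood at 2.46 in high Mg and 6.86 in low Mg, and CCH, a copper chaperone, at 1.28 and 2.96. COPT2, a copper uptake transporter, had 13.1 FPKM at 7 d and 14.9 FPKM at 4 d in high Mg, but 322 FPKM at 7 d and 8.68 FPKM at 4 d in low Mg. COPT1 was lower in high Mg, at -2.16. Of 11 zinc genes 3 were lower, with a median of -0.38: ZIP3 (-1.53), ZIP9 (-1.47) and ZIP5 (-1.03), of which ZIP5 turned positive under TPM rescaling.

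Potassium genes had 2 of 13 higher and 1 lower (median 0.12). SKOR, the channel that releases potassium to the xylem, had 107 FPKM at 7 d and 25.9 FPKM at 4 d (2.01), and KUP8 stood at 1.05. HAK5, the uptake transporter of potassium shortage, had 88.1 FPKM at 7 d and 184 FPKM at 4 d (-1.05), with 9.76 FPKM in low Mg at 7 d, 23.9 FPKM in low Mg at 4 d and 10.2 FPKM in the control. Both high Mg libraries lay above the other 3, and the direction between days turned under TPM rescaling. In low Mg 3 of the 13 potassium genes were higher and 1 lower, with SKOR at 1.87, KUP8 at 1.04 and HAK5 at -1.21.

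Nitrate genes had 4 of 12 lower and 0 higher (median -0.19): the transceptor NRT1.1 (-1.63), NRT2.1 (-1.31), its partner NRT3.1 (-1.07) and the reductase NIA2 (-1.03), and all but NRT1.1 turned positive under TPM rescaling. With TPM over coding genes 1 nitrate gene was lower and 1 higher. NRT2.1 had 17.36 FPKM in high Mg at 7 d and 44.6 FPKM at 4 d, with 8.37 FPKM in low Mg at 7 d, 135 FPKM in low Mg at 4 d and 1341 FPKM in the control. Of 14 genes of nitrogen assimilation 4 were lower (median -0.18): the ammonium transporters AMT1;3 (-2.06) and AMT1;2 (-1.11) and the glutamine synthetases GLN1;3 (-1.21) and GLN1;1 (-1.003), and all but AMT1;3 turned. With TPM over coding genes 1 of these was lower and 1 higher too. Phosphate genes had 1 of 12 higher, the exporter homologue PHO1;H1 (1.83), and a median of 0.33. Sulfate genes had 0 of 12 beyond 2-fold and a median of 0.21.

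Aquaporins are water channels. Of 13 plasma membrane aquaporins 3 were higher and 1 lower (median -0.06). PIP2;1 had 2799 FPKM at 7 d and 1327 FPKM at 4 d (1.08), PIP1;2 had 2221 and 972 FPKM (1.19), PIP2;5 stood at 1.504 and PIP2;6 at -1.63. Of 6 tonoplast aquaporins 4 were lower and 0 higher. Their median of -1.11 turned to 0.34 under TPM rescaling and stood beside a median of -0.31 for genes of their length. TIP2;1 stood at -1.51, TIP1;2 at -1.21, TIP2;3 at -1.21 and TIP4;1 at -1.02, and all but TIP2;1 turned. TPM over coding genes left 1 of the 6 lower, as did centring by length. In low Mg none of the 6 differed by 2-fold, with a median of -0.26. Of the 13 plasma membrane aquaporins 5 were higher and 0 lower in low Mg, with a median of 0.47. There PIP2;1 stood at 1.33, PIP1;2 at 1.65, PIP2;5 at 0.41 and PIP2;6 at 1.65. Fragments can be shared within both families, so single members are uncertain.

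Of 13 heat shock genes 8 stayed below 5 FPKM on both days, and the median over all 13 was -0.59. Of the 5 compared 3 were lower (median -2.26), but HSP70, HSP90.1 and HSP101 entered only through their 4 d value. HSP70 (AT3G12580) had 2.03 FPKM in high Mg at 7 d and 17.2 FPKM at 4 d, 1.63 FPKM in low Mg at 7 d, 34.0 FPKM in low Mg at 4 d and 287 FPKM in the control. The control was the highest library and both at 7 d the lowest, and the log2 ratio in high Mg was -2.59. HSP90.1, a chaperone, stood at -2.49 and MBF1C, a heat response coactivator, at -2.26. Of 11 endoplasmic reticulum chaperone genes 2 were lower, BIP1 (-1.02) and BIP2 (-1.004), both turning under TPM rescaling, against 11.3% of all genes, and the median was -0.88. Neither TPM over coding genes nor centring by length left any of the 11 lower.

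Low oxygen genes had 5 of 13 lower and 1 higher in high Mg, with a median of -0.80, and the same counts in low Mg, with a median of -0.78. SAD6, a stearoyl desaturase, had 11.1 FPKM at 7 d and 143 FPKM at 4 d (-3.57), and the fermentation genes PDC2 and PDC1 stood at -2.79 and -2.09. The repressor HRA1 stood at -2.15, and HRE1, a response factor, at 1.21. Reactive oxygen genes had 2 of 12 lower (median -0.53), the alternative oxidase AOX1A (-1.48) and GSTU24 (-1.11), which turned. This count is near the 11.3% of all genes that were lower, and 1 was left with TPM over coding genes. NADPH oxidases had 0 of 5 beyond 2-fold (median 0.48). Flavonoid genes had 4 of 9 lower and 1 higher (median -0.41): chalcone synthase TT4, at 0.238 FPKM at 7 d and 7.80 FPKM at 4 d (-2.83), CHIL (-2.04), the regulator MYB12 (-1.64) and FLS1 (-1.05), which turned, with the glycosyltransferase UGT78D2 at 1.79. These 4 lower genes entered only through their 4 d value and UGT78D2 only through its 7 d value. Of 16 flavonoid genes 7 stayed below 5 FPKM on both days, and the median over all 16 was 0.0099.

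Lists of camalexin, defence WRKY and salicylate genes had higher median day ratios in high Mg than in low Mg. Of 17 compared genes of camalexin and indole glucosinolate synthesis 2 were higher and 1 lower in high Mg at 7 d, with a median of 0.02, while in low Mg 0 were higher and 11 lower, with a median of -1.70. The day ratio was at least 2-fold higher in high than in low Mg in 9 of 17, against 6.66% of 16678 genes. CYP71A12, an enzyme of indole metabolism, had 17.2 FPKM in high Mg at 7 d and 5.27 FPKM at 4 d (1.54), but 40.3 FPKM in low Mg at 7 d, 246 FPKM in low Mg at 4 d and 167 FPKM in the control. Low Mg and the control held the higher levels, and only high Mg stood higher at 7 d than at 4 d. GSTF6, a glutathione transferase of camalexin synthesis, had 181 FPKM at 7 d and 74.0 FPKM at 4 d in high Mg (1.28), but 79.0 FPKM at 7 d and 715 FPKM at 4 d in low Mg. CYP81F4 was lower in both supplies, at -1.85 and -2.11.

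The defence WRKY factors had 3 of 17 higher and 0 lower (median 0.34), against 0 higher and 8 lower in low Mg (median -0.996), and the difference between the supplies was 2-fold or more upward in 12 of 17. Their median level was 15.4 FPKM in high Mg at 7 d and 10.9 FPKM at 4 d. It was 15.7 FPKM in low Mg at 7 d, 34.5 FPKM in low Mg at 4 d and 15.5 FPKM in the control, so low Mg at 4 d stood apart. High Mg at 7 d was the highest library in 3 of 17. WRKY38 (1.83), WRKY30 (1.64) and WRKY18 (1.07) were the higher members, and over the whole WRKY family, which includes them, 5 of 49 were higher and 0 lower. Of these higher genes WRKY38, WRKY30, WRKY62 and WRKY28 entered only through their 7 d value. Salicylate genes had 2 of 8 higher and 0 lower (median 0.49), SARD1 (1.86) and CBP60G (1.18), both activators of salicylate synthesis, against 0 higher and 4 lower in low Mg. PR1 was listed at 0 in all 5 libraries. Jasmonate genes had 4 of 12 higher and 1 lower (median 0.68): the repressors JAZ6 (1.77), JAZ9 (1.40), JAZ10 (1.38) and JAZ5 (1.03) were higher and VSP1 (-1.71) was lower. In low Mg 2 of the 12 were higher and 1 lower (median 0.01). JAZ9 (2.58) and JAZ10 (2.42) had higher ratios there than in high Mg. The difference between the supplies was 2-fold or more upward in 3 of 12 and downward in 2. JAZ9, JAZ10 and JAZ5 entered only through their 7 d value, and 6 of 18 jasmonate genes stayed below 5 FPKM. Touch and calmodulin-like genes had 1 of 9 higher, CML23 (1.14), against 4.65% of all genes, and a median of 0.31.

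Ethylene genes had 1 of 13 higher and 2 lower (median -0.46), with ACO4, which makes ethylene, at 1.35, and ERF104 (-1.30) and the receptor ETR2 (-1.24), both turning under TPM rescaling. Over all genes 4.65% were higher and 11.3% lower. In low Mg 9 of 13 were lower (median -1.17). Auxin transporters had 0 of 12 beyond 2-fold (median -0.25). Auxin response genes had 4 of 14 lower (median -0.42), of which LBD29 (-1.26), GH3.5 (-1.16) and LBD16 (-1.04) turned, and with TPM over coding genes 1 was lower and 1 higher. AIR1, induced by auxin in roots that form laterals, had 1392 FPKM in high Mg at 7 d and 4037 FPKM at 4 d (-1.53), with 381 FPKM in low Mg at 7 d, 611 FPKM in low Mg at 4 d and 245 FPKM in the control. Both high Mg libraries lay above the other 3. Abscisic acid and desiccation genes had 1 of 9 higher, KIN2 (2.39), and 2 lower, COR47 (-2.07) and ERD10 (-1.11), which turned; the median was 0.08.

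Lists of root tissues are read against 16% of all genes beyond 2-fold. Casparian strip genes had 2 of 8 lower (median -0.77), CASP4 (-1.75) and CASP2 (-1.04), which turned under TPM rescaling. Suberin genes had 1 of 11 higher, FAR5 (1.07), with a median of 0.08. None differed by 2-fold among 14 xylem wall genes (median -0.18), 6 phloem genes (0.13), 14 mitotic genes (-0.10) and 4 stem cell regulators (-0.40). Triterpene cluster genes had 1 of 7 higher, BARS1 (1.86), and 1 lower, THAS1 (-1.32), with a median of -0.16. Sugar genes had 2 of 14 higher, TPS11 (1.77) and TPS8 (1.25), with a median of 0.32. Senescence genes had 1 of 4 higher, the NAC factor NAP, with 61.4 FPKM at 7 d and 7.88 FPKM at 4 d (2.81). Of 3 compared photosynthesis genes 1 was lower, LHCA4 (-1.28, turning), and 10 of 13 stayed below 5 FPKM.

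Reference genes are those often used to normalise expression. Of 7 compared 1 was lower, YLS8 (-1.17, turning), and the median was -0.31, with UBQ10 at 0.72, UBC21 at -0.24, MON1 at -0.27, PP2AA3 at -0.31, ACT2 at -0.42 and GAPC1 at -0.65. The median became 1.11 under TPM rescaling and 0.19 with TPM over coding genes. In low Mg 0 of the 7 differed by 2-fold.

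Counts over families, whose members were taken by gene symbol alone, stand beside 4.65% of all genes higher and 11.3% lower. Here 2 of 19 tau glutathione transferases were higher and 8 lower (median -0.39), led by GSTU12 (1.29) and GSTU19 (1.07) upward and by GSTU14 (-2.45) and GSTU25 (-2.39) downward. Their median stood beside -0.31 for genes of their length. Both TPM over coding genes and centring by length gave 4 higher and 4 lower tau members. Of 9 phi members 2 were higher, GSTF6 and GSTF14 (1.17), and 1 lower, GSTF8 (-1.07, turning). Of 22 xyloglucan endotransglucosylases 2 were higher, XTH20 (1.18) and XTH7 (1.002), and 6 lower, 4 of them the root hair members above, followed by XTH5 (-2.02). Of 13 alpha expansins 1 was higher, EXPA17 (1.66), and 2 lower, the root hair pair. Of 98 cytochromes P450 14 were higher and 11 lower (median 0.02), with CYP71B9 (2.64) and CYP71A20 (138 FPKM at 7 d and 23.64 FPKM at 4 d) highest and CYP89A7 (-2.13) lowest; in low Mg 1 was higher and 17 lower.

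MYB factors had 4 of 40 higher, with MYB49 (2.52) and MYB59 (1.70) leading, and 3 lower. NAC factors had 4 of 39 higher, led by NAC2 (1.44), and 3 lower, led by NAC027 (-1.74). ERF genes had 2 of 13 higher and 3 lower. Of 15 histone genes 2 were lower, HTA11 (-1.23) and HTA8 (-1.04), both turning under TPM rescaling, beside a median of -0.63 for genes of their length. By symbol only 4 peroxidase and 16 SAUR genes were found, and members under other names are not counted. Of these, none of the 3 peroxidases and 2 SAUR genes compared differed by 2-fold.

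Over all 16081 genes the day ratio in high Mg correlated with that in low Mg, which shares no library with it, at Pearson r = 0.600 and Spearman rho = 0.644. This is a description across genes, which are not replicates, and both ratios carry whatever the days share. Of the higher genes 315 were also higher in low Mg, which is 42.2% of the 747 in high Mg and 48.3% of the 652 in low Mg. Of the lower genes 1004 were shared, 55.2% of the 1819 in high Mg and 48.2% of the 2085 in low Mg. Opposite calls were given to 67 genes that were higher in high and lower in low Mg and to 35 the other way round. The difference between the 2 day ratios reached 2-fold upward in high Mg for 1110 of 16678 genes (6.66%) and downward for 598 (3.59%), with 1 library behind each value and no test.

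**Figure D5:**
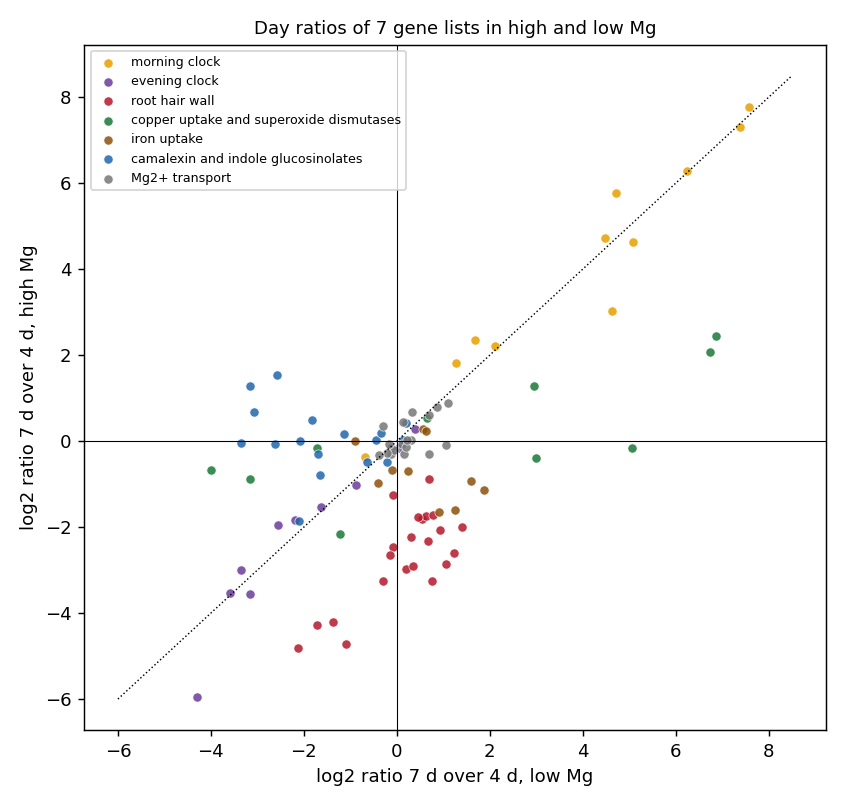
Log2 ratio of 7 d over 4 d in high Mg (y axis) and low Mg (x axis) for members of 7 lists, 1 point a gene, with the dotted line where both are equal. Clock genes lie along the line, root hair wall genes lie below it with medians of -2.53 in high Mg and 0.40 in low Mg, and many camalexin genes lie above it; under TPM rescaling LRX2 and BOA turn positive in high Mg.

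Among coding genes of 500 nt or more with a symbol in the annotation and above 0 in all 4 libraries, the 8 whose ratio lay furthest above that in low Mg were led by HOL2, a methyltransferase gene, with 17.5 FPKM at 7 d and 3.36 FPKM at 4 d in high Mg, but 0.845 FPKM at 7 d and 15.0 FPKM at 4 d in low Mg, a difference of 5.20 on the log2 scale. GSTF6 (4.44), HO4 (4.31), GSTU12 (4.25), ARD3 (4.24), an acireductone dioxygenase of the methionine cycle, CYP71A12 (4.12), scpl14 (4.00), a serine carboxypeptidase-like gene, and PUB54 (3.90), a U-box gene, followed. Furthest below among the same genes lay COPT2 (-5.23), FSD1 (-4.67), FRO4 (-4.41), AGD11 (-4.27), PRP1 (-4.00), XTH12 (-3.93), FLA6 (-3.85), a fasciclin-like arabinogalactan protein, and XTH26 (-3.83). FLA6 had 0.773 FPKM in high Mg at 7 d and 17.7 FPKM at 4 d, with 15.2 FPKM in low Mg at 7 d, 10.8 FPKM in low Mg at 4 d and 15.6 FPKM in the control. High Mg at 7 d alone was low.

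Coding genes of 500 nt or more with 20 FPKM or more on one day and listed at 0 on the other were few. AT3G25011 (24.2 FPKM) and AT4G16855 (22.1 FPKM) were present at 7 d and listed at 0 at 4 d. AT3G44006 (318 FPKM) and AT3G48346 (52.1 FPKM) were listed at 0 at 7 d and present at 4 d. All 4 are annotated as uncharacterized proteins, and a value of 0 gives no fold. At the limits of the rule, RIC10 entered with 1.44 FPKM at 7 d and 5.001 FPKM at 4 d and AT5G61490 just missed with 4.90 and 4.9996 FPKM. CYP702A6 (7.25 FPKM at 7 d and 3.12 FPKM at 4 d) lay just inside 2-fold higher and AT4G19920 (18.7 and 8.86 FPKM) just outside. AT3G63090 (3.56 and 8.11 FPKM, turning under TPM rescaling) lay just inside 2-fold lower and AT5G47530 (3.01 and 7.03 FPKM) just outside.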

How the data were processed

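The deposited FPKM tables were used as they stand, and the series table matched the 5 sample tables in every value. For the 4 d libraries the submitters' processing notes name TAIR10, Cufflinks 2.1.1 and TopHat2 2.0.8. For those at 7 d they name TAIR10, and neither the aligner nor the counter is given in the sources used here. That the authors' values are FPKM was read from that list and from the spacing of low values. Strand handling and scaling between libraries are not given in those sources. Log2 ratios used a pseudocount of 1 and a minimum of 5 FPKM (Python 3.11.15, pandas 2.3.3), and they understate the change of low genes. Names, lengths and positions are from TAIR10.1, in which 32817 loci (97.8%) were found. Of 622 entries in 44 lists 18 were left out because symbol and locus were not paired there. Members and lists were chosen with earlier results of these data known. Genes named are the 12 highest and 12 lowest coding genes (500 nt or more, a symbol in TAIR10.1, above 0 on both days), up to 4 per list and direction, all members of the clock, Mg, root hair wall, root hair factor and reference lists, the 8 furthest from low Mg each way (the same limits, above 0 in all 4 libraries), genes at 0 on one day, and those beside the limits. JMJD5 and EXT13 are among the 12 lowest. For other genes short of 2-fold (RHD2, EGL3, GL2), below 5 FPKM (IRT2) or at 0 (PR1) the choice followed their values. The calculation of the ratios was run on simulated coding genes with known ratios. That simulation held counting error only, with no short locus and no trend with gene length. It therefore bears on the formula and not on these libraries. With 1 library per group no p-value was computed.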

Additional observations from a re-analysis of the deposited data

Results flagged for a closer look

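The chloroplast loci lie outside the comparison. Their summed level was 8207 FPKM in high Mg at 4 d, against 4388 FPKM in the control at 4 d, and it was 389 FPKM in high Mg at 7 d. Low Mg had 297 FPKM at 7 d and 6749 FPKM at 4 d, so both libraries at 7 d lay below all 3 at 4 d. Day ratios pointed in opposite directions in the 2 supplies, at 2-fold or more each, for 67 genes that were higher at 7 d in high Mg and lower in low Mg, and for 35 genes the other way round. None of these differences was tested, since each group is 1 library. Those named by rule and above 0 in all 4 libraries are given here, with only such opposite calls. Upward differences of log2 ratios (high minus low Mg) were held by HOL2 (5.20), GSTF6 (4.44), GSTU12 (4.25), ARD3 (4.24), CYP71A12 (4.12), PUB54 (3.90), CYP71B9 (3.75), MYB15 (3.31), WRKY30 (3.17), SARD1 (2.97), WRKY28 (2.97) and CBP60G (2.66). Downward differences were held by AGD11 (-4.27), XTH12 (-3.93), XTH26 (-3.83), XTH13 (-3.41), FRO2 (-3.01), IRT1 (-2.87), ZIP9 (-2.51), COW1 (-2.51) and ERU (-2.36). AGD11, which encodes a protein with an ARF-GAP domain, had 4.46 FPKM in high Mg at 7 d and 39.3 FPKM at 4 d, against 20.9 FPKM in low Mg at 7 d and 7.36 FPKM at 4 d.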

How the results depend on the processing

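Counts of genes 2-fold higher and lower at 7 d in high Mg (747 and 1819), and higher and lower at 7 d in low Mg (652 and 2085), and of genes whose day ratio lay 2-fold above and below that in low Mg (1110 and 598), stayed within 1.5 times under a pseudocount of 0.1, no filter, median centring and coding genes of 500 nt or more. Other settings moved some of them. TPM rescaling gave 10014 and 241 in high Mg, 13966 and 216 in low Mg, and 526 and 2535 for the difference. TPM without AT2G01021 gave 1869 and 841 in high Mg and 1617 and 1157 in low Mg. A pseudocount of 5 gave 477 higher genes in high Mg, 381 in low Mg and 376 with a lower ratio than low Mg. A filter of 20 FPKM gave 396 and 356 higher genes in high and low Mg, and 655 and 300 for the difference. Chosen after seeing the data, TPM over coding genes gave 2038 and 804 in high Mg and 1723 and 1138 in low Mg, and centring within exon-length classes gave 1007 and 1214 lower genes in high and low Mg. By construction TPM lifts all ratios, since the short locus filled less of the sum at 7 d, and it alone reversed values: the medians of root hair transcription factors (0.14) and tonoplast aquaporins (0.34), and 36 lower genes. These are BOA (0.074), BIP1 (0.44), BIP2 (0.46), NRT2.1 (0.10), NRT3.1 (0.39), NIA2 (0.42), GLN1;3 (0.25), AMT1;2 (0.33), GLN1;1 (0.46), FRO2 (0.29), ZIP5 (0.25), HAK5 (0.40), LRL2 (0.15), RSL2 (0.14), LRX2 (0.16), COW1 (0.18), TIP1;2 (0.26), TIP2;3 (0.26), TIP4;1 (0.43), ERF104 (0.14), ETR2 (0.14), LBD29 (0.018), GH3.5 (0.25), LBD16 (0.25), ERD10 (0.36), GSTU24 (0.28), FLS1 (0.22), CASP2 (0.41), LHCA4 (0.016), YLS8 (0.29), GSTF8 (0.39), NAC070 (0.30), MYB73 (0.047), HTA11 (0.23), HTA8 (0.39) and AT3G63090 (0.21). For the moved counts under the pseudocount, the filter and length centring the cause was not tested. No paired analysis was possible because each group is 1 library and the labels give no replicate numbers, and for the same reason no replicate could be left out. Levels of extensins, aquaporins and glutathione transferases may mix fragments of near copies.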
